A study of Mus musculus with 8 samples.

Results

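The genes described here encode the RNA polymerases, the Mediator complex and the general transcription factors, and the question was which of their promoters carried a binding site of ASH2L. They were chosen by symbol among the protein-coding genes of the GENCODE annotation of mm10, as Polr1, Polr2, Polr3, Med, Taf, Gtf2 and Gtf3 symbols and Tbp. This gave 105 of 21938 protein-coding genes, namely 28 polymerase subunits, 30 Mediator subunits, 17 TFIID subunits with their paralogues, and 30 other general factors. A gene was counted as having a promoter site when a site was centred within 1 kb of any of its annotated transcription start sites (TSSs).

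ASH2L is a core subunit of the KMT2 complexes, which methylate lysine 4 of histone H3. It was profiled by ChIP-seq in iMEF, an immortalised mouse embryo fibroblast line, in 8 libraries that formed 4 groups of 2 replicates. These were ASH2L precipitates and inputs, each from untreated cells and from cells exposed to dTAG for 1 h. All groups shared the same cells: the floxed exon 4 of Ash2l had been deleted with an inducible Cre-ER, and a lentiviral construct supplied human ASH2L with an N-terminal FKBP12 tag carrying F36V and an HA epitope. dTAG-13 links this tag to the ubiquitin ligase substrate receptor Cereblon, so that the fusion protein is degraded. Per the study's methods the cells were clones, mostly 1 of them (NG3), and the precipitation used HA antibodies, whereas the sample labels name Ash2l as the antibody target. The data were 1 list of 6444 sites compiled over all samples, with a chromosome, a start and an end for each. It holds no signal per library, so the depth reached, the replicate error and the effect of dTAG cannot be computed from it and were not analysed here. Every value is a description of this list, and a gene without a site in it is not thereby shown to lack ASH2L. The list also does not show which libraries a site came from. Of the sites, 6428 lay on the 21 assembled nuclear chromosomes and were used.

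RNA polymerase I transcribes the ribosomal RNA precursor, RNA polymerase II the messenger RNAs, and RNA polymerase III the transfer RNAs and the 5S ribosomal RNA. At promoters of RNA polymerase II, TFIID with its TATA-binding protein Tbp, TFIIA, TFIIB, TFIIE, TFIIF and TFIIH assemble with the polymerase, and Mediator connects them to activators. TFIID itself can read histone marks: the PHD finger of Taf3 binds histone H3 trimethylated at lysine 4, the mark that the KMT2 complexes set. Most of these genes are used in every cell type, and their promoters commonly lie in CpG islands.

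Promoter sequences are shown for 9 genes with a site, from RefSeq with build GRCm38.p6, each from 150 bases before the RefSeq start to 30 bases after it, or to the end of a motif that crosses this limit. Those of Polr2a (chr11:69758604-69758783 on the minus strand), Med13 (chr11:86357567-86357746 on the minus strand), Taf9 (chr13:100651193-100651372 on the plus strand) and Gtf2b (chr3:142765097-142765277 on the plus strand) belong to the widest site of their complex that has an entry in the RefSeq table. Those of Taf4 (chr2:179976617-179976796 on the minus strand), Taf5 (chr19:47067598-47067777 on the plus strand), Polr2j (chr5:136116541-136116720 on the plus strand), Med15 (chr16:17722918-17723097 on the minus strand) and Gtf3c6 (chr10:40257683-40257862 on the minus strand) hold a YY1 or NRF1 motif, as does that of Gtf2b. They are written 5′ to 3′ in the direction of transcription. Capitals mark exact matches, on either strand, to the motifs of 9 factors or elements that are spelled out with the motif counts.
Polr2a: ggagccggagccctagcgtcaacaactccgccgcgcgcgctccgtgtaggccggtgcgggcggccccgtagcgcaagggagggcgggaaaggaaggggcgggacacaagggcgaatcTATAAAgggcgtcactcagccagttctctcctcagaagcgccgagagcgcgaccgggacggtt
Med13: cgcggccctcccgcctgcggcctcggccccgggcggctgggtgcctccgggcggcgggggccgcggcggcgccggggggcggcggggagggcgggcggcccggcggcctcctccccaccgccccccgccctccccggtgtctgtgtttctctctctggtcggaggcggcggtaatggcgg
Taf9: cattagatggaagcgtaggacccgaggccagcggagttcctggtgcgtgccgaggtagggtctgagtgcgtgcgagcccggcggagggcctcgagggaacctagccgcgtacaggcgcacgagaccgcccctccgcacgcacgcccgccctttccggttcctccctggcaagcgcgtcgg
Gtf2b: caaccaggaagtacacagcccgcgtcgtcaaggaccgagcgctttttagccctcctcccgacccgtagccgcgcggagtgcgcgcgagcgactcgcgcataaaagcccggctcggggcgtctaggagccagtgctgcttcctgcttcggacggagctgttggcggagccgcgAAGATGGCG
Taf4: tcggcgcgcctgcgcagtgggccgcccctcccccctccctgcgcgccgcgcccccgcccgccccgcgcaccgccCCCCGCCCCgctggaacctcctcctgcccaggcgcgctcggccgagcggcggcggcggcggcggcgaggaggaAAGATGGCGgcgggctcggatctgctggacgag
Taf5: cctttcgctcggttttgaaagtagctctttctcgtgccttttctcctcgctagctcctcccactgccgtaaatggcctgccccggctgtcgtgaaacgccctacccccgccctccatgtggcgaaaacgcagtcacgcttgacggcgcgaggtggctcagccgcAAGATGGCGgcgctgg
Polr2j: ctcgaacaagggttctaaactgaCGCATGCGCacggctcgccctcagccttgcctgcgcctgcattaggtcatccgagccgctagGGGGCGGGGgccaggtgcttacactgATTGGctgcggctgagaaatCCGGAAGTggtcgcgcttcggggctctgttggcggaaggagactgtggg
Med15: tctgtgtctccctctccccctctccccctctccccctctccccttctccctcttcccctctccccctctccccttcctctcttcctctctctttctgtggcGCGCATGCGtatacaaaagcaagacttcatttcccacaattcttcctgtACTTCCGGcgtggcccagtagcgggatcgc
Gtf3c6: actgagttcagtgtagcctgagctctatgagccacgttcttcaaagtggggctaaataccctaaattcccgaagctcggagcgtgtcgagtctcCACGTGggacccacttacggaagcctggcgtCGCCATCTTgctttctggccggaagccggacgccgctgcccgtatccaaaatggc

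Of the 180 bases shown, the ASH2L site covered all 180 at Polr2a and Taf9, 159 at Taf5 and 156 at Polr2j. The RefSeq start of Taf9 used here, at position 100651343, is also the annotated TSS of Ak6, upstream of the GENCODE TSS of Taf9 at position 100651579 from which distances are given below. At Taf4 it covered 34, at Med13 30, and at Gtf2b 80 of 181. At Med15 and Gtf3c6 it covered 0 bases: the site of Med15 belonged to another of its 15 TSSs, and that of Gtf3c6 lay farther upstream.

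Promoter sites were found at 41 of the 105 genes, a share of 39.0% (Wilson 95% confidence interval 30.3 to 48.6%), and 64 genes had none. Over all protein-coding genes the share was 14.0% (3078 of 21938). A CpG island lay near a TSS (within 1 kb) of all 105 genes and of 72.7% of all protein-coding genes, and among the 15953 protein-coding genes with an island the share with a site was 19.2%. Both background shares lay below the interval of the members. Intervals here cover counting error alone, since genes are not replicates, and no test was run on the differences.

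The 4 classes had shares between 28.6 and 46.7%. Mediator had a site at 14 of 30 genes (46.7%, interval 30.2 to 63.9%), the other general factors at 13 of 30 (43.3%, 27.4 to 60.8%), TFIID at 6 of 17 (35.3%, 17.3 to 58.7%) and the polymerases at 8 of 28 (28.6%, 15.3 to 47.1%). The intervals of all 4 classes overlapped, and differences between polymerases, Mediator and TFIID were not tested. Those of Mediator and of the other general factors lay above both backgrounds, whereas those of TFIID and the polymerases included 19.2%.

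**Figure D1:**
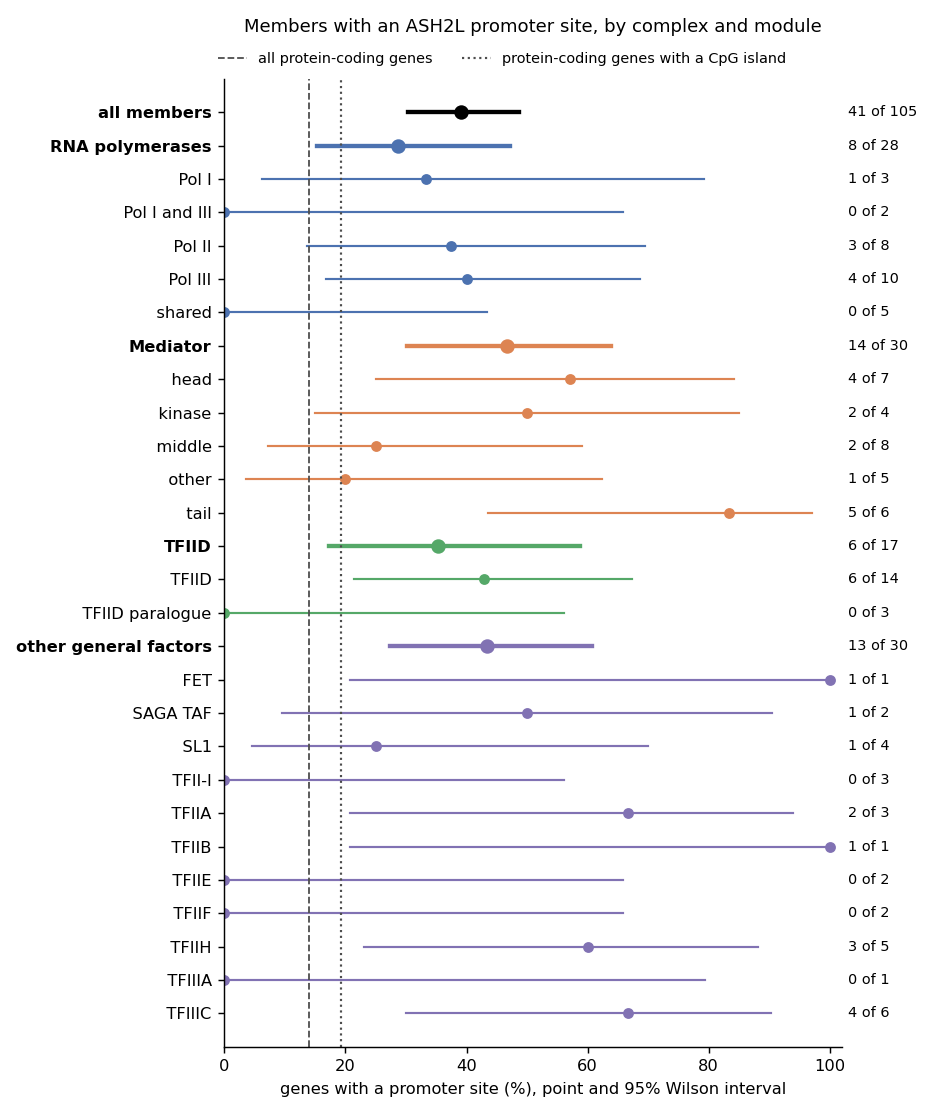
Share of genes with an ASH2L promoter site in percent (horizontal axis) for all 105 members, the 4 classes and their modules, with Wilson 95% intervals as bars and counts at the right. The dashed and dotted lines mark 14.0% of all protein-coding genes and 19.2% of those with a CpG island; the tail module of Mediator stands highest among groups of 5 or more genes, at 5 of 6, and the subunits shared by all polymerases stand at 0 of 5.

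Among the polymerase genes, sites were found at subunits that belong to 1 enzyme and at none of the shared ones. RNA polymerase I had a site at 1 of 3 genes, Polr1a, its largest subunit. RNA polymerase II had sites at 3 of 8, namely Polr2a, its largest and catalytic subunit, Polr2j, and Polr2m, a factor that associates with the enzyme. RNA polymerase III had sites at 4 of 10, namely its largest subunits Polr3a and Polr3b, and Polr3e and Polr3f. The 5 subunits shared by all 3 enzymes (Polr2e, Polr2f, Polr2h, Polr2k and Polr2l) and the 2 shared by enzymes I and III (Polr1c and Polr1d) had none. This is 0 of 7, which allows a share of up to 42.9% (Wilson interval 0 to 35.4%). Among unshared genes it was 8 of 21 (38.1%, interval 20.8 to 59.1%), and the intervals overlap.

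The site at Polr2a was the widest of a polymerase gene, with 448 bp at chr11:69758541-69758988. It covered the TSS, with its centre 127.5 bp upstream. The next widest was at Polr3e, with 377 bp at chr7:120917807-120918183, centred in an intron 211 bp downstream of the TSS. At Polr3a, the catalytic subunit of RNA polymerase III, a site of 215 bp (chr14:24486962-24487176) was centred 11 bp upstream of the TSS, and it also lay 56 bp upstream of the start of Rps24, a ribosomal protein gene on the other strand. The site of Polr1a, 275 bp at chr6:71908469-71908743, lay 447 bp upstream of its TSS. It was nearer to the start of Ptcd3, a gene of the mitochondrial ribosome on the other strand, whose TSS was 112 bp from the centre.

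Polr2m was the only polymerase gene with more than 1 site. Its sites of 220 bp (chr9:71485701-71485920, in coding sequence) and 251 bp (chr9:71485308-71485558, in an intron) were centred 94.5 and 472 bp downstream of the TSS. The sites of Polr2j (213 bp), Polr3b (283 bp) and Polr3f (267 bp) covered the TSS, with centres 31, 22 and 45 bp away. Among the other genes without a site were Polr1b and Polr1e; Polr2b, Polr2c, Polr2d, Polr2g and Polr2i; and Polr3c, Polr3d, Polr3g, Polr3gl and Polr3k. Thus Polr1a had a site and its partner in the catalytic core, Polr1b, did not, and the same held for Polr2a and Polr2b, while Polr3a and Polr3b both had one.

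Mediator is built from a head, a middle and a tail module on the scaffold subunit Med14, with a kinase module that detaches from it. Sites were found at 4 of 7 head genes (Med6, Med8, Med18 and Med22), 2 of 8 middle genes (Med7 and Med9), 5 of 6 genes of the scaffold and tail (Med15, Med16, Med23, Med24 and Med25) and 2 of 4 kinase module genes (Med13 and Med13l). Of the 5 subunits not assigned to a module here, Med30 had one. Placing these 5 in modules would change the module counts and was not tried. The interval of the tail genes, 43.6 to 97.0%, lay above both backgrounds and overlapped that of the middle genes, 7.15 to 59.1%. Tail genes also had more annotated TSSs, with a median of 10.5 against 4.5 for middle genes, and the part of this in the counts was not tested.

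The widest Mediator sites were at Med23, with 489 bp at chr10:24869833-24870321 in the UTR and 21 bp from the TSS, and at Med13, with 464 bp at chr11:86357133-86357596 in an intron. Med13, which links the kinase module to the core, had a further site of 358 bp at chr11:86357930-86358287, so that the pair flanked the TSS at 237.5 bp downstream and 506.5 bp upstream. Med24, of the tail, followed with 462 bp. Med7 had sites of 201 bp (chr11:46436970-46437170, UTR) and 208 bp (chr11:46437478-46437685, intron), 65 and 576.5 bp downstream of the TSS. The 201 bp site was the narrowest of any member.

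The remaining Mediator sites were between 209 and 338 bp wide. Those of Med6 (260 bp), Med9 (231 bp), Med16 (246 bp), Med18 (266 bp) and Med30 (338 bp) covered the TSS. Those of Med8 (215 bp), Med13l (318 bp) and Med25 (237 bp) lay within the gene, 223, 258.5 and 122 bp downstream. Those of Med15 (209 bp) and Med22 (224 bp) lay upstream, by 277 and 235.5 bp.

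Several subunits with well known roles were without a site. Med1, which binds nuclear receptors (chr11:98152154-98193293), had its nearest site 133784 bp from a TSS. For Med12, which activates the kinase (chrX:101274030-101297465), this distance was 51386 bp, and for the scaffold Med14 (chrX:12675369-12762073) it was 310944.5 bp. No site was found either at Med4, Med10, Med11, Med12l, Med17, Med19, Med20, Med21, Med26, Med27, Med28, Med29 and Med31.

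In TFIID, 6 genes carried a site, Tbp and Taf3, Taf4, Taf5, Taf9 and Taf10. Taf1, Taf2, Taf6, Taf7, Taf8, Taf11, Taf12 and Taf13 had none, and neither had the 3 paralogues Taf4b, Taf7l and Taf9b. Without the paralogues the share was 6 of 14 (42.9%, interval 21.4 to 67.4%). Among histone-fold partners, Taf9 had a site and Taf6 none, and Taf4 had one and Taf12 none. Taf3 and Taf10 both had one, while Taf8, the other partner of Taf10, had none, and Taf11 and Taf13 both had none.

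The site at Taf9 was the widest of all 46, with 852 bp at chr13:100650915-100651766, and 95.7% of all protein-coding promoter sites were narrower. It covered the TSS of Taf9 but was centred 238.5 bp upstream of it, 2.5 bp from a start of Ak6, an adenylate kinase gene that shares this locus, and 289.5 bp from that of Rad17 on the other strand. Tbp, which is used by all 3 polymerases, followed with 400 bp at chr17:15499788-15500187 in the UTR. Its centre was 27.5 bp downstream of the TSS and 236.5 bp upstream of the start of Psmb1, a proteasome subunit gene on the other strand. Sites at Taf3 (263 bp), Taf5 (272 bp) and Taf10 (330 bp) were centred 105, 8.5 and 60.5 bp from the TSS, and that of Taf4 (214 bp) 102.5 bp downstream. All 6 sites covered the TSS. Taf1, the largest subunit (chrX:101532734-101601789), had its nearest site at 134162.5 bp.

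Among the other general factors, the share varied from factor to factor, on few genes each. TFIIB, the single-subunit factor that positions the polymerase, had a site at Gtf2b, and TFIIA at 2 of 3 genes, Gtf2a1 and Gtf2a2. The core of TFIIH, the factor that opens DNA, had sites at 3 of 5 genes, Gtf2h1, Gtf2h2 and Gtf2h3. None was found at the 2 genes of TFIIE (Gtf2e1 and Gtf2e2) and the 2 of TFIIF (Gtf2f1 and Gtf2f2), nor at Gtf2h4, Gtf2h5 and Gtf2a1l.

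The 3 genes of the TFII-I family (Gtf2i, Gtf2ird1 and Gtf2ird2) also had none. TFIIIC, which recruits RNA polymerase III to transfer RNA genes, had sites at 4 of 6 genes, Gtf3c3, Gtf3c4, Gtf3c5 and Gtf3c6, but not at Gtf3c1 and Gtf3c2. Gtf3a, the factor for 5S ribosomal RNA genes, had none. Of the TAFs of SL1, the Tbp complex of RNA polymerase I, Taf1d had a site and Taf1a, Taf1b and Taf1c had not. Of the TAFs of the coactivator SAGA, Taf5l had one and Taf6l had not, and the RNA-binding protein gene Taf15 had one.

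The site of Gtf2b measured 576 bp at chr3:142765198-142765773 and was centred in a noncoding exon 262.5 bp downstream of the TSS. That of Gtf2a2 measured 427 bp at chr9:70012553-70012979, in the UTR, 123 bp downstream. Taf1d had more sites than any other member, 3 of them, with 395 bp at chr9:15306250-15306644, 208 bp at chr9:15306853-15307060 and 260 bp at chr9:15307066-15307325. All 3 were in its UTR and within 1 kb of a TSS of 4931406C07Rik on the other strand.

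The other sites of this class were 203 to 293 bp wide. Those of Gtf2h1 (203 bp), Gtf2h2 (238 bp), Gtf2h3 (221 bp), Gtf3c3 (269 bp), Gtf3c4 (293 bp), Gtf3c5 (231 bp) and Taf5l (227 bp) covered the TSS. The centres at Gtf3c3, Gtf3c4 and Gtf3c5 lay 4, 16 and 6 bp from it. The sites of Taf15 (225 bp) and Gtf2a1 (234 bp) lay 145 and 567.5 bp downstream, and that of Gtf3c6 (228 bp) 426.5 bp upstream.

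Members with 2 or more promoter sites numbered 4 of 105, namely Med7, Med13, Polr2m and Taf1d, against 455 of 21938 protein-coding genes (2.07%). Among genes with any promoter site, these were 4 of 41 members and 455 of 3078 protein-coding genes. The 41 genes had 46 sites in all. Their median width was 260 bp (quartiles 224 and 336 bp), compared with 305 bp (232 and 425 bp) for the 3168 promoter sites of all protein-coding genes. None of the 46 had the smallest width in the list, 200 bp, which 9.25% of all promoter sites had, and none exceeded 1 kb, as 3.09% did. By class the median width was 301 bp for TFIID, 267 bp for polymerases, 253 bp for Mediator and 234 bp for the other factors.

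**Figure D2:**
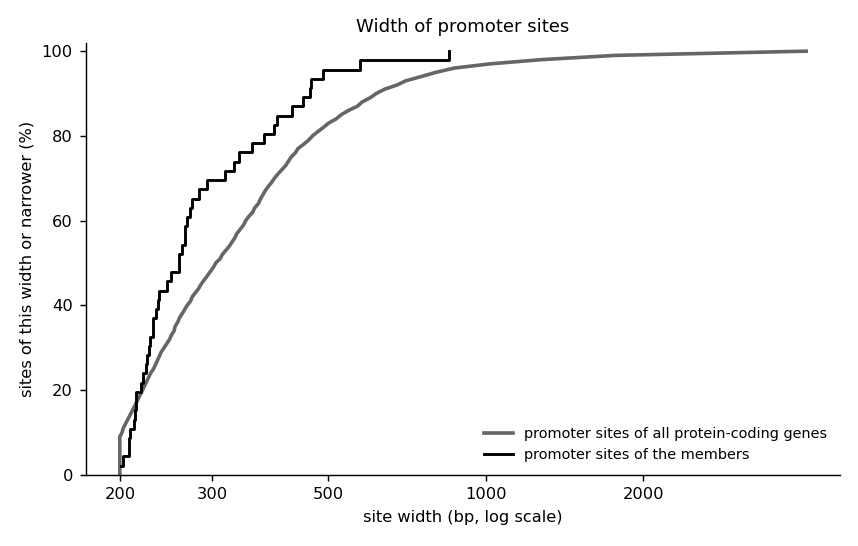
Cumulative share of promoter sites in percent (vertical axis) by width in bp (horizontal log axis) for the 46 sites of the members (black steps) and the 3168 promoter sites of all protein-coding genes (grey line). The members' curve lies left of the other over most of the range, with medians of 260 and 305 bp, and ends at 852 bp, while the other reaches 4095 bp.

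Site centres were close to the TSS on both sides. Of the 46, 26 were centred downstream of the nearest TSS of the gene (56.5%, interval 42.2 to 69.8%), with a median of 24.8 bp, and 35 (76.1%) lay within 250 bp of it. Over the 3640 pairs of a protein-coding gene and a promoter site, in which a site near several genes counts once for each, these values were 61.5%, 50.0 bp and 65.4%. With gene starts alone in place of all TSSs, the members' downstream share was 71.1%, and with TSSs of protein-coding transcripts it was 69.6%. The share over all protein-coding genes is given for all TSSs only. The site covered the TSS in 30 of 46 cases (65.2%). By class, 11 of 16 Mediator sites, 3 of 6 TFIID sites, 4 of 9 polymerase sites and 8 of 15 sites of other factors were centred downstream. In the annotation 17 centres lay in a UTR, 13 upstream of the gene, 10 in an intron, 5 in coding sequence and 1 in a noncoding exon.

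**Figure D3:**
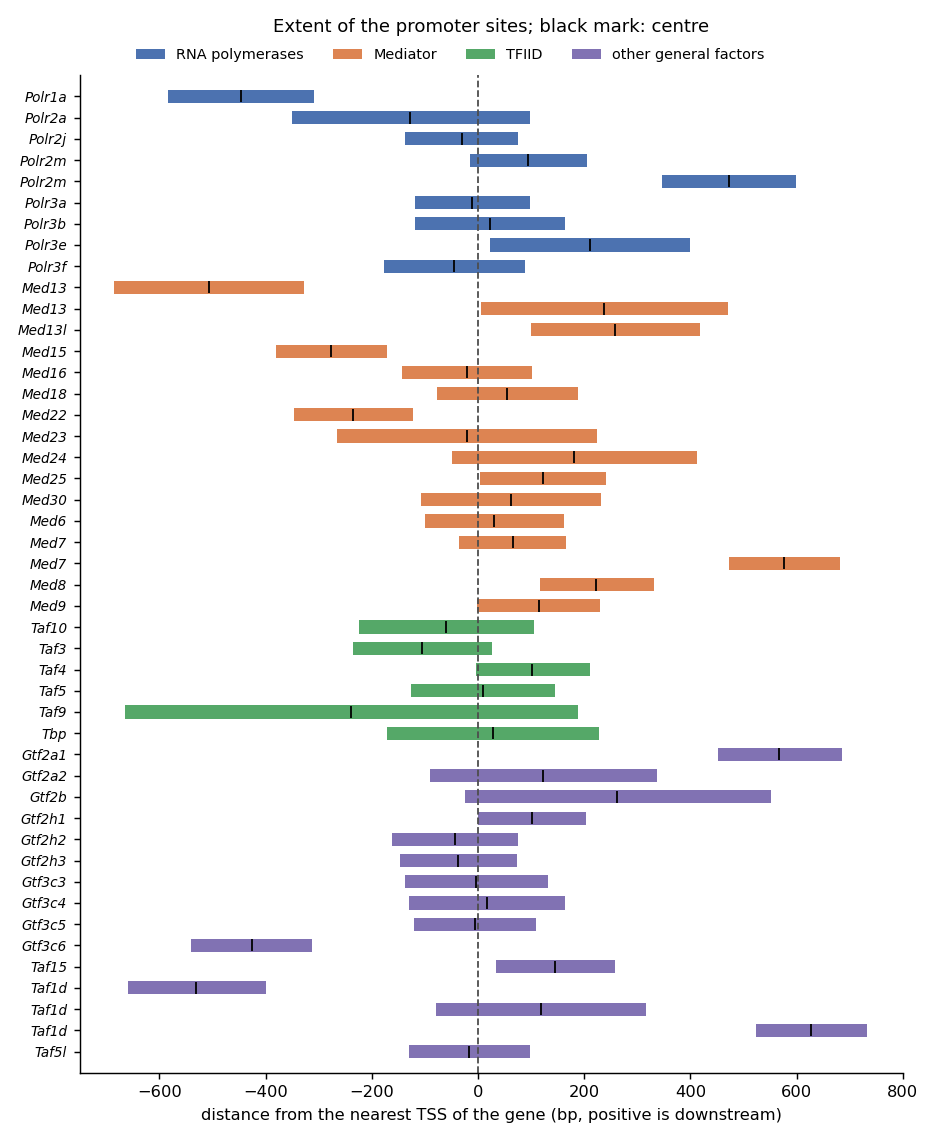
Extent of each of the 46 promoter sites (bars, one line each) relative to the nearest TSS of its gene in bp (horizontal axis, positive is downstream, dashed line at 0), coloured by class, with the centre as a black mark. Most bars cross or adjoin the TSS, the bar of Taf9 is the longest at 852 bp, and sites of Polr1a, Med13, Med15, Med22, Gtf3c6 and Taf1d lie wholly upstream.

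Many of these sites lay near the start of a further gene. Of the 46 sites, 20 (43.5%, interval 30.2 to 57.8%) also lay within 1 kb of a TSS of another gene of any type, and 14 (30.4%, 19.1 to 44.8%) of another protein-coding gene. Over all protein-coding promoter sites these shares were 30.5 and 14.4%. Such a partner was present for 18 members, and 19 of the 20 pairs of member and partner were transcribed from opposite strands. Ak6 at Taf9 was the partner on the same strand.

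Several partners have general roles of their own. At Med22 the site lay 91.5 bp from a TSS of Rpl7a and at Polr3a 56 bp from that of Rps24, both genes of ribosomal proteins. Eif2b1, of a translation initiation factor, lay at Gtf2h3 with 28 bp, and Ddx31, of an RNA helicase, at Gtf3c4 with 70 bp. Urb2, of ribosome biogenesis, lay at Taf5l with 180 bp. Other protein-coding partners were Hps5 at Gtf2h1 and Dzank1 at Polr3f, beside those given above for Polr1a, Taf9, Tbp and Taf1d.

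For 6 members the partner was noncoding alone, namely Med9, Med16, Taf3, Taf4, Polr3b and Gtf3c6. The site of Gtf3c6 was 67.5 bp from the start of Rnu3a, a U3 small nucleolar RNA gene, and 426.5 bp from its own. In 7 of the 46 cases a TSS of another gene was nearer to the centre than that of the member. This concerned Med22, Taf9, Taf1d, Gtf2h3, Gtf3c6 and Polr1a, and when each site was given to its nearest gene alone, 36 members (34.3%) had a site. Which of the paired genes a site serves cannot be told apart from the list.

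A divergent partner, that is a TSS on the other strand within 1 kb upstream, was annotated for 41 of the 105 genes (39.0%), against 18.3% of all protein-coding genes. Over all protein-coding genes, 28.2% of those with such a partner had a site and 10.9% of those without. Among protein-coding genes with a CpG island these shares were 29.5 and 15.9%. Among the members 16 of 41 with a partner had a site (39.0%, interval 25.7 to 54.3%), an interval that includes the 28.2%. Without a partner these were 25 of 64 (39.1%, 28.1 to 51.3%), above the 10.9%. The differences were not tested.

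The number of annotated TSSs, which sets how much sequence is searched per gene, was also compared. It had a median of 5.00 in members with a site and 4.50 in members without. Sites were found at 6 of 20 members with 1 or 2 TSSs (30.0%), 17 of 43 with 3 to 5 (39.5%) and 18 of 42 with 6 or more (42.9%). The corresponding shares were 6.18, 15.2 and 24.4% of all protein-coding genes, and 11.9, 18.7 and 25.4% of those with a CpG island. The members' intervals lay above each of them, with lower bounds of 14.5, 26.4 and 29.1%.

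**Figure D4:**
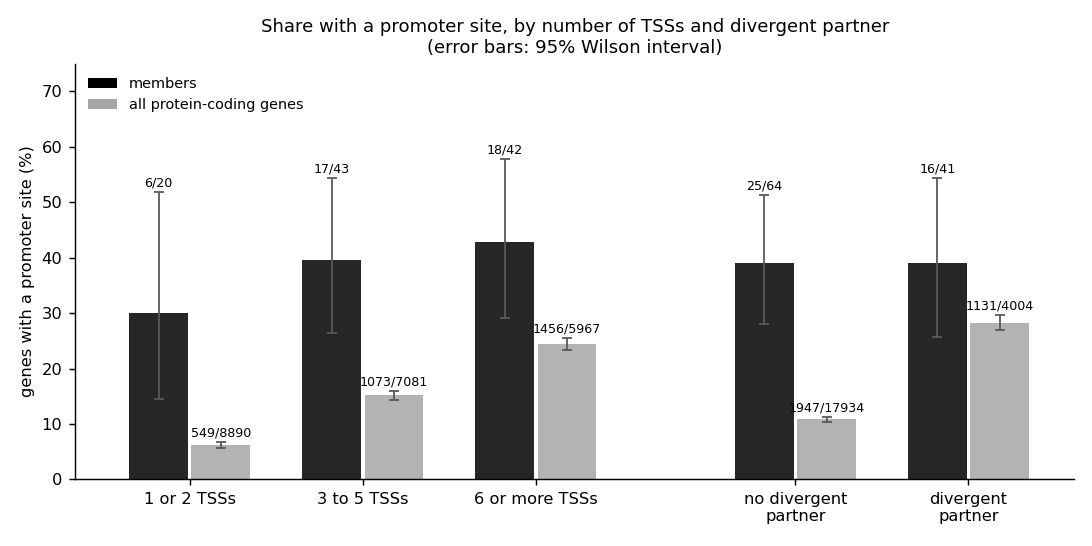
Share of genes with a promoter site in percent (vertical axis) by number of TSSs and by presence of a divergent partner, for members (black) and all protein-coding genes (grey), with counts and Wilson 95% intervals as error bars. Members stand at 30.0 to 42.9% across the TSS groups and at 39.1 and 39.0% without and with a partner, while all genes rise from 6.18 to 24.4% and from 10.9 to 28.2%.

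Chromosome X held 5 of the genes, Med12, Med14, Taf1, Taf7l and Taf9b, and none of them had a site. A count of 0 of 5 allows a share of up to 60.0% (Wilson interval 0 to 43.4%). Among the 948 protein-coding genes of this chromosome, 24 (2.53%) had a site. On the autosomes 41 of 100 members had one (41.0%, interval 31.9 to 50.8%).

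The rule of 1 kb split the genes with a wide margin. The nearest site lay within 1 kb for 41 genes, between 1 and 3 kb for 0, between 3 and 50 kb for 23, between 50 and 100 kb for 16 and farther for 25. Just inside were Gtf2a1 at 567.5 bp, Polr1a at 447 bp and Gtf3c6 at 426.5 bp. Just outside were Taf12 at 4192.5 bp, Polr1e at 6317.5 bp and Gtf2ird2 at 7437 bp. Members without a promoter site had a median distance of 75500 bp to the nearest site (quartiles 33400 and 178000 bp), and the farthest was Polr3g, a subunit of RNA polymerase III, at 796999 bp. By class this median was 48600 bp for polymerases, 83600 bp for TFIID, 93600 bp for the other factors and 94800 bp for Mediator.

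**Figure D5:**
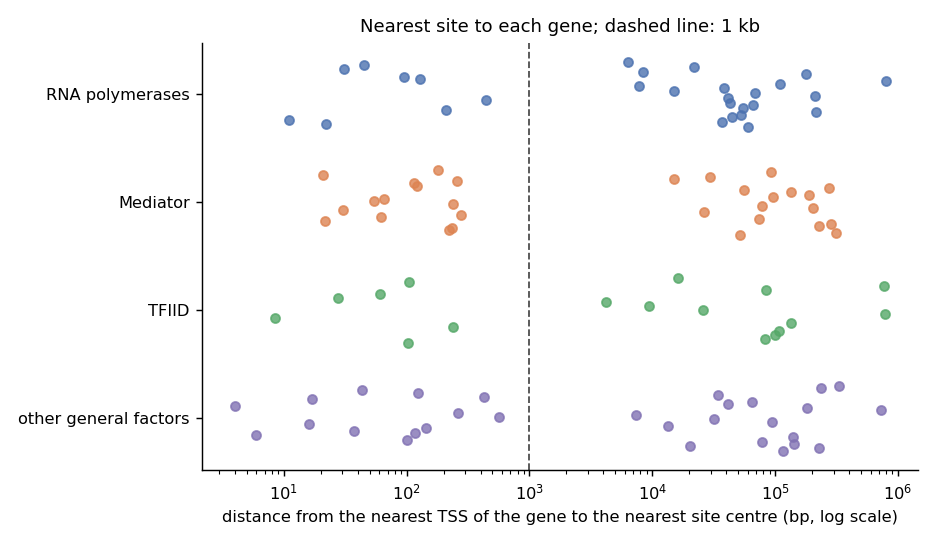
Distance from the nearest TSS of each of the 105 genes to the nearest site centre in bp (horizontal log axis), by class (points are genes, spread vertically for clarity), with a dashed line at 1 kb. No gene lies between 567.5 and 4192.5 bp, and genes on either side of this gap occur in all 4 classes.

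Genes of the same machinery outside the symbol rule were counted from a list of 74. Of these, 26 had a promoter site (35.1%, Wilson interval 25.2 to 46.5%), against 14.0% of all protein-coding genes and 19.2% of those with a CpG island. The groups below are small: the intervals of the RNA polymerase I and III lists, the TFIIH partners, the elongation factors (14.7 to 45.7%) and SAGA each include 19.2%. Ccnc and Cdk8, the cyclin and kinase of the Mediator kinase module, had sites of 411 and 393 bp, and Cdk19 had none, which gave 2 of 3. Among factors of RNA polymerase III 4 of 9 had one, namely Brf1 (392 bp), Brf2 (450 bp) and Bdp1 (344 bp), which form TFIIIB with Tbp, and the repressor Maf1 (518 bp). Of 7 genes listed with RNA polymerase I, which include Polrmt, the mitochondrial polymerase, 2 had one. These were Twistnb (525 bp) and Znrd1 (353 bp), subunits of RNA polymerase I under other symbols. Cd3eap, a further such subunit, and Polrmt had none. Of the Tbp-related and Tbp-regulating genes 3 of 5 had one: Tbpl1 (549 bp), Btaf1 (582 bp) and Drap1 (239 bp).

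TFIIH partners had a site at 1 of 5 genes, Mnat1 (240 bp), and not at its helicases Ercc2 and Ercc3 or its kinase Cdk7 with cyclin Ccnh. Elongation and pausing factors had sites at 8 of 29 genes, among them Cdk13, which phosphorylates RNA polymerase II, with 1219 bp, Tcea1 with 996 bp, Ssrp1 with 422 bp and the pausing factors Nelfa and Nelfb with 246 and 200 bp. SAGA genes had them at 6 of 16, among them Trrap (385 bp), Atxn7 (377 bp) and Kat2b (309 bp).

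Promoter composition was read from the RefSeq table, which has an entry of 300 bases for 91 of the 105 genes, 36 with a site and 55 without. Genes not among them included Med8, Med23, Med24, Med30, Polr3a, Polr2d, Polr2g, Polr2k, Polr3d, Gtf2e2, Taf2, Taf4b and Taf7. The median GC content was 62.2% in members with a site and 58.0% in members without, against 61.7% in the 2398 protein-coding genes with a site and 57.0% of all 16522 in the table. The ratio of observed to expected CpG was 0.852 and 0.806 in these members, and 0.840 and 0.584 in the protein-coding genes with a site and in all.

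Motifs were matched as exact letters on both strands over these 300 bases, and each was counted regardless of others. A gene with several RefSeq starts has several such windows, and a match in any of them was counted. This held for 7 of the 36 members with a site (19.4%), 9 of the 55 without (16.4%) and 16.2% of all protein-coding genes. The letters of ETS factors (CCGGAAGT) stood in 6 of 36 members with a site (16.7%) and 13 of 55 without (23.6%), compared with 12.7% of the protein-coding genes with a site and 5.94% of all. Those with a site were Gtf2a2, Gtf2h2, Med15, Med18, Polr2j and Polr3b. For YY1 (AAGATGGCG) the counts were 4 of 36 (11.1%), namely Gtf2b, Gtf3c6, Taf4 and Taf5, and 2 of 55 (3.64%), compared with 4.80% of the protein-coding genes with a site and 2.25% of all. For NRF1 (GCGCATGCG) they were 2 of 36 (5.56%), Med15 and Polr2j, and 4 of 55 (7.27%), compared with 4.80% and 2.74%.

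In the sequences shown, the YY1 letters began 14 bases after the RefSeq start of Taf5, 22 bases after that of Gtf2b and 3 bases before that of Taf4, all in the direction of transcription. In Gtf3c6 they stood on the other strand, 25 bases before the start. Polr2j combined NRF1, SP/KLF, CCAAT and ETS letters within 127 bases before its start, and Med15 combined NRF1 and ETS letters.

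The CCAAT box (CCAAT) was found in 9 of 36 members with a site (25.0%) and 22 of 55 without (40.0%), compared with 38.2% of the protein-coding genes with a site and 42.1% of all. SP/KLF letters (GGGGCGGGG) were found in 19.4 and 16.4%, compared with 20.9 and 17.9%. E-box letters (CACGTG) were found in 13.9 and 25.5%, compared with 11.1 and 9.18%, and TATA letters (TATAAA) in 16.7 and 12.7%, compared with 9.42 and 14.3%. Polr2a was among the 6 members with a site and TATA letters, which began 33 bases before its start. CRE letters (TGACGTCA) were in 0 of 36 and 4 of 55, compared with 4.21% of the protein-coding genes with a site and 2.64% of all. The ZBTB33 core (CTCGCGAG) was in 0 of 91 members, compared with 3.34 and 1.45%. These counts describe letters in the windows searched, not bound factors.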

How the data were processed

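ASH2L ChIP-seq and input libraries were made from iMEF cells, 8 in all. Per the study's methods, reads were trimmed by the authors (Trim Galore), mapped to mm10 (GRCm38.p6) with BWA and filtered with SAMtools. Replicates were merged using Picard, and MACS was used to call narrow peaks. The deposited list gives the position of each site compiled over all samples, with no value per library. Whether peaks were called per sample or on merged samples is not visible in it, and it does not show the depth of the libraries. The first base of a chromosome was taken as 0 in the starts of the list, so that the smallest width is 200 bp, and printed positions are 1-based.

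TSSs and gene structures came from GENCODE release 21 (the authors used a later release). A promoter site was centred within 1 kb of any TSS. CpG islands were windows of 200 bp with GC over 50% and observed to expected CpG over 0.6 within 1 kb of a TSS. No test was run. Shares carry Wilson 95% intervals, and a count of 0 is also given the limit of 3 counts of the total. Complexes and modules were assigned from textbook knowledge. The members, gene lists and alternatives were chosen with earlier results of these data known.

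Every member with a site is named. Some gene names are not reported here. Coordinates are given for the 2 widest sites of each class, for members with 2 or more sites and for 9 catalytic and founding subunits. Alternatives changed the window, the TSSs, the position of a site, the widths, the assignment to genes, the island definition and the class limits. Python 3.11.15 was used with NumPy 2.4.6, pandas 2.3.3, pysam 0.24.0 and matplotlib 3.10.9. The assignment of sites to TSSs was tested on simulated data.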

Additional observations from a re-analysis of the deposited data

How the results depend on the processing

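The 9 values that answer a comparison were recomputed under 57 alternatives, and 55 of these stayed within the interval or quartiles of the reported value. Some alternatives could not move a value, because all 105 members have a CpG island and no member site is 200 bp wide. The 2 that moved were the share of member sites centred downstream of the TSS, which was 71.1% with gene starts alone, and the share of members with a CpG island, which was 94.3% (99 of 105) with windows of 500 bp, GC over 55% and a ratio over 0.65. Why these 2 moved was not tested. With TSSs of protein-coding transcripts the downstream share was 69.6%, close to the upper limit of its interval (69.8%). The share of members with a site ranged from 34.3% (each site given to its nearest gene alone) to 40.4% (members with the stricter island), while that of all protein-coding genes ranged from 11.8 to 22.8% over the same settings. No paired analysis was possible because the list has no value per library, and leaving out a replicate or raising the peak threshold was not possible for the same reason. With 17 to 30 genes per class the intervals span more than 30 percentage points, and differences between the classes were not tested.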

Other observations

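Sites inside the body of a member, farther than 1 kb from each of its TSSs, were found for 4 of the 105 genes (3.81%, Wilson 95% interval 1.49 to 9.39%). Over all protein-coding genes the share was 5.84%, which the interval includes. Gtf2h1, of the TFIIH core, held 2 such sites, and Tbp, Taf1b, of SL1, and Polr2j held 1 each. Gtf2h1, Tbp and Polr2j also had a promoter site, whereas the body site of Taf1b, 31596.5 bp from its TSS, was the nearest site to that gene.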
